A study of Mus musculus with 2 samples.

Results

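The 10 genes described here are Trp53, which encodes the transcription factor p53, and 9 genes that p53 is known to act on directly, Mdm2, Cdkn1a, Ccng1, Trp53inp1, Zmat3, Aen, Sesn1, Sesn2 and Gadd45a. They were picked by symbol from the 24421 genes in each table, and all 10 are listed. Phlda3, a p53 target that lies near the disrupted gene, is not among them and served as a comparison. The question was whether the output of p53 as a group differed between the genotypes, or Phlda3 alone.

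RNA was sequenced from CD4 T cells of C57BL/6J mice, wild type (Chi3l1+/+) or Chi3l1 knockout (Chi3l1-/-), that had been isolated as naïve cells and skewed in culture to Th1 cells, the helper T cells that make IFNγ. Skewing used plate-bound anti-CD3 and anti-CD28 with IL-12, IL-2 and anti-IL-4 in both genotypes, and mice of the study were 6 to 8 weeks old. The knockout is of the whole animal rather than of T cells alone, and the sources used here do not give the number or sex of the mice behind each library, nor the day of culture. There was 1 library of each genotype (n = 1), so no difference below has a replicate check, and no test between genotypes was possible. Because whole cultures were sequenced, fewer cells of a type and less RNA per cell cannot be told apart.

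The transcription factor p53 is held at a low level by the ubiquitin ligase Mdm2, and damaged DNA or other stress frees it from this control. It then binds response elements near its targets and raises genes that stop the cell cycle, repair DNA, restrain growth signaling or promote cell death. Mdm2 is itself a target, which closes a negative feedback loop. In T cells, p53 is known to limit proliferation after activation.

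The targeted gene went against the labels. Chi3l1, listed as Chil1 (chromosome 1, 134182176 to 134190181), had a deposited log2 value of 0.94 in the library labelled WT Th1 and 6.66 in the library labelled Chi3l1 KO Th1, or about 1 and 103 reads. Its log2 fold change was 5.71, and the 95% interval for read sampling reached down to 4.17 and had no useful upper bound, with a single read in the WT-labelled library. The values are per gene, so it was not tested whether these reads come from parts of the gene that the disruption leaves in place. For this reason the libraries are called WT-labelled and KO-labelled below, and every direction rests on those labels. About 70694853 reads could be rebuilt for the WT-labelled library and 63018988 for the KO-labelled library. All 9 T cell and Th1 markers checked were detected in both libraries, among them Cd3e with 14.94 and 14.86 and Tbx21, the Th1 factor T-bet, with 13.98 and 13.72. Single markers differed in both directions. Ifng, the Th1 cytokine IFNγ, had 11.72 and 13.04, a log2 fold change of 1.32, and Il12rb2, an IL-12 receptor chain, had one of 0.45, while the chemokine receptor Cxcr3 had 8.05 and 6.82, a log2 fold change of -1.23. The summed normalized count of the 9 markers, 108123 in the WT-labelled and 107779 in the KO-labelled library, does not show these differences. All 5 B cell markers were higher in the KO-labelled library, with summed counts of 939 and 1731. The 5 neutrophil markers listed had summed counts of 58.0 and 4.79, with Camp at 0 in both libraries and S100a8, S100a9 and Elane at 0 in the KO-labelled library. The 9 markers of monocytes, macrophages and dendritic cells had 747 and 625, with 3 higher and 5 lower, among them Flt3 with 18 and 68 reads, Lyz2 with 34 and 2 and Itgax with 44 and 5, and with Adgre1 at 0 in both libraries, Cd14 at 0 in the KO-labelled and Xcr1 at 0 in the WT-labelled library. The 2 CD8 markers had 812 and 807, with log2 fold changes of 0.60 for Cd8a and -0.47 for Cd8b1. The 3 NK cell markers had 27.1 and 52.1, with Ncr1 at 0 in the WT-labelled library. The part of these other cells in the values below was not tested.

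The known response element of p53 is a pair of decamers, each close to the p53 decamer consensus, with few or no bases between them. Promoters from RefSeq (GRCm38.p6), from 250 bases before to 50 bases after each annotated start, were held for 8 of the 10 genes, with none for Trp53inp1 and Zmat3. A pair of decamers with at most 13 bases between them and at most 2 mismatches in all, with the C and the G of the core required in each, was found in a promoter of 4 of these 8 genes, namely Cdkn1a, Ccng1, Sesn1 and Gadd45a. The same pair was found for 4.71% of the 27025 genes with a promoter, and for 8 of 46 of the other p53 targets described below. The consensus reads the same on both strands, so 1 strand was searched. A single decamer without mismatch was in a promoter of 7 of the 8 genes, against 9.55% of all genes and 12 of 46 of the other p53 targets. The promoters with a pair are printed because they hold letters close to the p53 consensus, and that of Phlda3 because its value differed most, with the decamers of the pair in capitals and the gene's own strand read 5′ to 3′. Where several pairs matched, the one with the fewest bases between its decamers is marked.
Cdkn1a, chr17:29090729-29091028, plus strand: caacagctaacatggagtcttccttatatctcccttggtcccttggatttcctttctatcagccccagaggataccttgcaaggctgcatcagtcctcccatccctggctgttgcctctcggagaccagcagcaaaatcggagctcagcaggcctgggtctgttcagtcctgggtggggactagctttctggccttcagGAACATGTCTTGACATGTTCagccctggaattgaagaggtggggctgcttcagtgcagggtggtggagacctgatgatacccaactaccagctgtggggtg
Ccng1, chr11:40755237-40755536, minus strand: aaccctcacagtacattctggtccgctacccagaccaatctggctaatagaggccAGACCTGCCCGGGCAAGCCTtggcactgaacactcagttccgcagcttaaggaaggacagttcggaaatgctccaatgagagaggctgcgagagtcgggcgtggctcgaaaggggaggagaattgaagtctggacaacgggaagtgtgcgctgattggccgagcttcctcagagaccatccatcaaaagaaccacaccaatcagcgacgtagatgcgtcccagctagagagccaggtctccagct
Sesn1, chr10:41887189-41887488, plus strand: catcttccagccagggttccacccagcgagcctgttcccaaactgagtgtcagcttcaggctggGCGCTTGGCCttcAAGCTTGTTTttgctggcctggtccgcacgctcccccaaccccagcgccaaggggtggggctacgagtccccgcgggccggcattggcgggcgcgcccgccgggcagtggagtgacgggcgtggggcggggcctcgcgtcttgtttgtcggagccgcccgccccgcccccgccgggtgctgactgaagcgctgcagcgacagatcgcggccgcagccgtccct
Gadd45a, chr6:67037358-67037657, minus strand: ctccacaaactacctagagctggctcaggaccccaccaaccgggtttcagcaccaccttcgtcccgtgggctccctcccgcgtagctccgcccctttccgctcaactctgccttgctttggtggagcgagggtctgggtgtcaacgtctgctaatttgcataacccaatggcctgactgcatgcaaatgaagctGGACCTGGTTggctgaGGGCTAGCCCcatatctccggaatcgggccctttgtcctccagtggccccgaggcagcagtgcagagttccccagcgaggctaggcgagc
Phlda3, chr1:135765835-135766134, plus strand: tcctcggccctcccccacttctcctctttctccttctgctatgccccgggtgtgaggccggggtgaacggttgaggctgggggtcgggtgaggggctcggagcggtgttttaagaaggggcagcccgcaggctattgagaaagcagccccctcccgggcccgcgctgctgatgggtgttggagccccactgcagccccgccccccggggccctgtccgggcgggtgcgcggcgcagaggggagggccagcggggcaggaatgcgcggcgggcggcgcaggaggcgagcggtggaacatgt

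In Cdkn1a the marked decamers touch and lie 51 to 32 bases before the more upstream of its annotated starts, with 1 mismatch in all, while the promoter of its other start held no pair. In Ccng1 they touch as well, 195 to 176 bases before the start and with 1 mismatch. A marked pair is a match of letters and not a measured binding site. The pairs of Sesn1 and Gadd45a were looser, with 2 mismatches each and 3 and 6 bases between the decamers. Sesn1 likewise has 1 start with a pair and 1 without. No pair and no whole decamer without mismatch was found in these windows of Sesn2 and Phlda3. That says only that none lies wholly inside them, since p53 can also act from introns and distant sites. The Phlda3 window ends in gaacatgt, letters that also open the first marked decamer of Cdkn1a. A decamer cut by the end of the window could not be found by this search. The 4 genes with a pair did not share a direction or size of difference between the libraries, as their values below show.

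Of the 10 genes, 8 were higher and 2 were lower in the KO-labelled library, and none reached a 2-fold difference in either direction. Over all listed genes, 4.7% were at least 2-fold higher and 5.81% at least 2-fold lower in the KO-labelled library. Many of those have few reads. Genes that reached 6 on the log2 scale in each library, called well measured below, are the closer background and include all 10, and of them 1.02% were at least 2-fold higher and 1.38% at least 2-fold lower. At 1.5-fold, 3 of the 10 genes were higher (Gadd45a, Mdm2 and Zmat3) and none was lower, against 5.93% and 7.75% of the 10945 well measured genes. The median log2 fold change of the 10 genes was 0.30, and that of the 10945 genes was -0.01, of which 49.4% were higher in the KO-labelled library. A log2 fold change here is the deposited value of the KO-labelled library minus that of the WT-labelled library. The 10 genes are few and were chosen with earlier results of these data known, so the counts describe these libraries. The ribosomal precursor RNA Rn45s took 2.83% of the summed count in the WT-labelled and 1.0% in the KO-labelled library, and its part in the difference of the 10 genes was not tested.

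**Figure D1:**
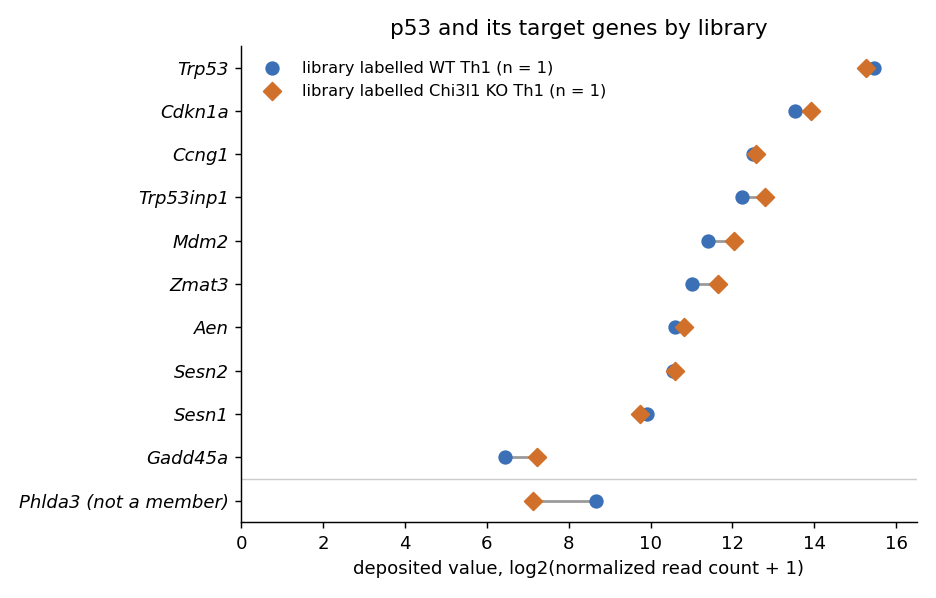
The horizontal axis gives the deposited value, log2 of a normalized read count plus 1, for each gene in the WT-labelled library (circles) and the KO-labelled library (diamonds), with n = 1 each and no error bars. Trp53 is the highest in both libraries with 15.47 and 15.26, Gadd45a is the lowest of the 10 genes, and Phlda3, below the line, shows the widest gap.

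Trp53 itself was abundant and slightly lower in the KO-labelled library. The gene (chromosome 11, 69580359 to 69591873, plus strand, GRCm38) had log2 values of 15.47 in the WT-labelled and 15.26 in the KO-labelled library, from about 46778 and 40538 reads. The log2 fold change was -0.21, a 1.16-fold difference, with an exact binomial 95% interval from -0.23 to -0.19. This interval and those that follow hold read sampling alone and no variation between mice or cultures. By mean log2 value Trp53 ranked 209 among the 24421 genes. Of genes with a mean log2 value of at least 14, the middle 90% had log2 fold changes from -0.66 to 0.29, and Trp53 lay inside this range. The median of these abundant genes was -0.16, below the -0.01 of all well measured genes, so Trp53 was close to the typical gene of its level. After quantile normalization the difference of Trp53 was -0.01. Messenger RNA is a poor guide to p53 activity, which is set mainly by the stability and modification of the protein.

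Of the feedback genes, Mdm2 was higher in the KO-labelled library and Ccng1 was nearly level. Mdm2, the ubiquitin ligase that marks p53 for destruction (chromosome 10, 117688875 to 117710758, minus strand), had log2 values of 11.40 and 12.04 in the WT-labelled and KO-labelled libraries. Its log2 fold change was 0.64 (interval 0.57 to 0.71), which is 1.56-fold, from 2798 and 4368 reads. Of the 3390 genes with a mean log2 value from 10 to 12, 5% were above 0.52, so Mdm2 lay in the upper tail. Ccng1, which encodes cyclin G1, a partner of protein phosphatase 2A that acts on Mdm2 (chromosome 11, 40748552 to 40755311, minus strand), had 12.51 and 12.59. Its log2 fold change of 0.08 (interval 0.03 to 0.13) turned to -0.15 after subtraction of the trend with GC content (described at the end), so Ccng1 has no settled direction although its promoter holds a pair of touching decamers.

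The cell cycle arrest genes among the 10, Cdkn1a and Gadd45a, were both higher in the KO-labelled library. Of 7 other well measured arrest targets, described below, 2 were higher and 5 were lower. Cdkn1a (chromosome 17, 29090976 to 29100727, plus strand) encodes p21, the inhibitor of cyclin-dependent kinases that is the best known p53 target. It had log2 values of 13.54 and 13.93, from 12284 and 16169 reads. The log2 fold change was 0.39 (interval 0.36 to 0.43), which put Cdkn1a just inside the top 5% of the 1958 genes with a mean log2 value from 12 to 14. Gadd45a, a stress protein that binds the replication clamp PCNA and p21 (chromosome 6, 67035096 to 67037457, minus strand), had 6.45 and 7.23 from only 89 and 154 reads. It had the largest log2 fold change of the 10 genes, 0.78, and also the widest interval, from 0.40 to 1.18. Genes of a mean log2 value from 6 to 8 spread more, with 5% above 0.85, and Gadd45a lay inside their range. Its exons overlap E230016M11Rik, a transcript of the opposite strand with log2 values of 5.31 and 6.04 and a log2 fold change of 0.73. Whether the authors counted by strand is not given in the sources used here, so reads of Gadd45a and its antisense partner cannot be told apart.

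Among the genes tied to cell death and RNA control, Trp53inp1 and Zmat3 were higher and Aen less so. Trp53inp1, a stress protein that promotes p53 activity and autophagy (chromosome 4, 11156431 to 11174379, plus strand), had log2 values of 12.24 and 12.79. Its log2 fold change of 0.56 (interval 0.51 to 0.61) lay outside the range of its level, where 5% of genes were above 0.39, but it was 0.33 and inside the range without the GC trend. Zmat3, an RNA-binding zinc finger protein that controls stability and splicing of other messages (chromosome 3, 32334792 to 32366014, minus strand), had 11.01 and 11.65. Its log2 fold change of 0.64 (interval 0.56 to 0.72) had the size of that of Mdm2. Aen, an exonuclease that takes part in p53-dependent apoptosis (chromosome 7, 78895854 to 78911209, plus strand), had 10.60 and 10.81. Its log2 fold change was 0.21 (interval 0.11 to 0.31).

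The sestrins, which restrain mTORC1 under stress, did not share the higher values. Sesn1 (chromosome 10, 41809935 to 41908424, plus strand) had log2 values of 9.92 and 9.73, a log2 fold change of -0.19 (interval -0.32 to -0.06). Sesn2 (chromosome 4, 132492032 to 132510501, minus strand) had 10.56 and 10.59, a log2 fold change of 0.03, and was the one gene of the 10 whose interval, from -0.07 to 0.13, held 0. Its transcript is rich in GC (58.7%), and the value moved to 0.38 without the GC trend. Sesn3, a relative that answers mainly to FoxO factors, had a log2 fold change of 0.09.

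**Figure D2:**
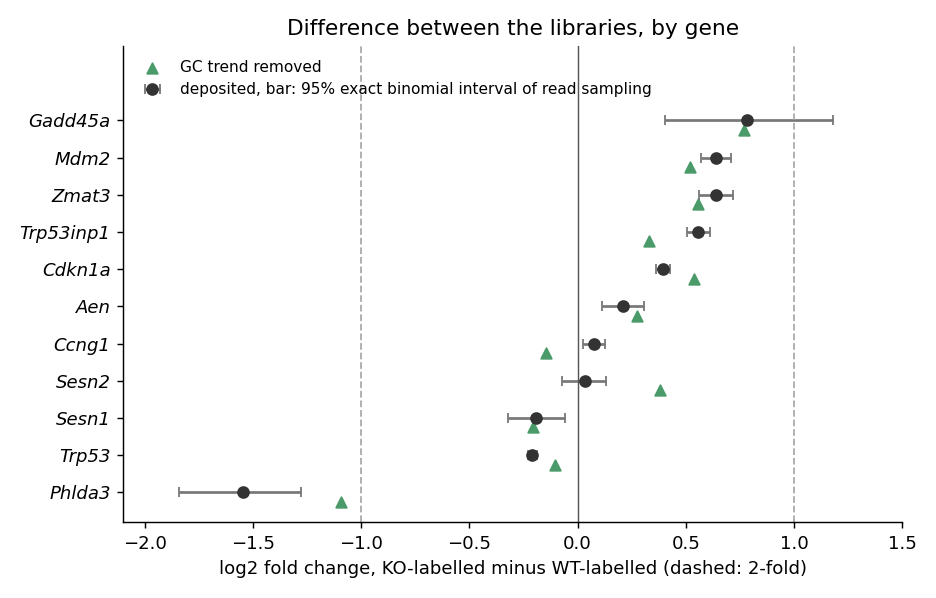
Circles give the log2 fold change, KO-labelled minus WT-labelled (n = 1 each), with bars for the exact binomial 95% interval of read sampling, and triangles give the value after the trend with GC content is removed. All 10 genes lie between the dashed 2-fold lines, from -0.21 for Trp53 to 0.78 for Gadd45a, while Phlda3 lies at -1.55.

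The order of the genes by level changed little. Per kilobase of exon, Trp53 led with a normalized count of 11197 in the WT-labelled and 9687 in the KO-labelled library, followed by Cdkn1a with 3347 and 4399, and Ccng1 with 1659 and 1750. Trp53inp1 had 745 and 1097, Mdm2 had 533 and 831, Sesn2 had 433 and 442, and Aen had 267 and 309 per kilobase. Sesn1 and Zmat3 were the only neighbours that changed places, with 243 and 213 for Sesn1 and 180.3 and 281 for Zmat3. Gadd45a was last in both libraries, with 48.9 and 84.5. Without replicates, the spread between samples around these levels is unknown. The exon length is the union of all annotated exons of a gene, which understates the level of genes with long or rarely used exons.

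Phlda3 stood apart from all 10 genes. This gene encodes a small protein with a pleckstrin homology domain that competes with the kinase Akt for membrane lipids, and is a p53 target (chromosome 1, 135766119 to 135769136, plus strand). Its log2 values were 8.67 in the WT-labelled and 7.12 in the KO-labelled library, from about 420 and 143 reads. It was 2.92-fold lower in the KO-labelled library, with a log2 fold change of -1.55 and an interval from -1.84 to -1.28. The intervals of all 10 genes lay above that of Phlda3, and the gap to the lowest of them, Trp53, was -1.34 on the log2 scale. The gap to their median was -1.85. Phlda3 was picked as the comparison with earlier results of these data known, so these gaps describe the libraries and are not a test. Among the 1852 genes with a mean log2 value from 6 to 8, 5% were below -0.92. Phlda3 has a GC content of 62.6%, while 95% of well measured genes lie under 59.6%, and its log2 fold change was -1.09 without the GC trend. That GC content is past the last bin of the trend, which was held at its last value there.

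Phlda3 starts 1.58 Mb from the end of Chi3l1 on chromosome 1. Of the 15 well measured genes between them, 2 were at least 2-fold lower and none was at least 2-fold higher in the KO-labelled library. Over all well measured genes, the shares were 1.38% lower and 1.02% higher. The median log2 fold change of the 15 genes was -0.29. The 2 lower genes were Rnpep with a log2 fold change of -2.41 and Ube2t with -2.11, and the highest was Tmem183a with 0.34. All were named after their values were seen. None of the 10 genes lies on chromosome 1. The part of the targeted locus in the value of Phlda3 was not tested.

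**Figure D3:**
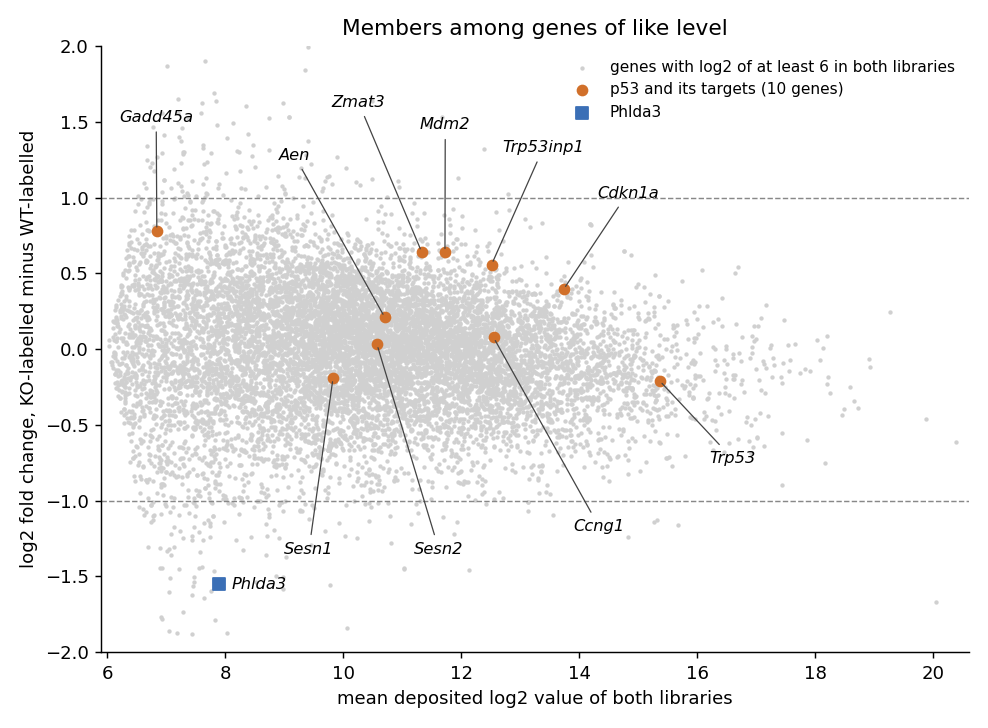
Each grey point is 1 of the 10945 well measured genes (6 or more on the log2 scale in each library), placed by its mean log2 value (horizontal axis) and its log2 fold change, KO-labelled minus WT-labelled (vertical axis), with 6 genes beyond the axis limits of 2 not drawn and dashed lines at 2-fold. The orange points of p53 and its targets lie within the cloud or along its upper edge, and Phlda3 lies among the sparse points below the lower dashed line.

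Other p53 targets had a median difference nearer to 0 than the 10 genes, with members on both sides. A list of 55 further p53 targets was used, sorted by role, of which 28 were higher, 26 were lower and 1 was at 0 in both libraries. The median log2 fold change of this list was 0.02, against 0.30 for the 10 genes. Of the 49 that were well measured, 27 were higher and 22 were lower. In that set 2 were at least 2-fold higher and 1 at least 2-fold lower, against 1.02% and 1.38% of all well measured genes. Over the whole list, 3 were at least 2-fold higher, namely Kank3, Sulf2 and Trp53cor1. Another 2, Sfn and Eda2r, were at least 2-fold lower. The shares over all listed genes were 4.7% higher and 5.81% lower. Kank3 had a log2 fold change of 1.23 (interval 0.83 to 1.66, from 72 and 170 reads) and Sulf2, a heparan sulfate sulfatase, had 1.01 (interval 0.71 to 1.33). Sfn, which encodes the cell cycle protein 14-3-3σ, was 2.01-fold lower (log2 interval -1.13 to -0.88, from 1689 and 843 reads) and had a log2 fold change of -0.61 without the GC trend. Trp53cor1, known as lincRNA-p21, had 3 and 13 reads, and Eda2r had 7 and 2 reads, so both values are close to the limit of counting. These last 2 genes were named after their values were seen, to complete the counts.

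Sorted by role, the well measured targets had medians on both sides of 0, and each role holds few genes. Of 7 cell cycle arrest targets, 2 were higher and 5 were lower, from Sfn to Ccng2 with 0.33, and their median was -0.30. Of the 5 lower, 2 lie on chromosome 1 near the targeted gene, named after their values were seen. Btg2 (134075170 to 134079120) had -0.30, and Ptprv (135108497 to 135132594), between Chi3l1 and Phlda3, had -0.35. Both lay inside the range of genes of like level, whose lower ends were -0.60 and -0.68. Mdm4 and Dyrk3, on the same part of chromosome 1 and also named after their values were seen, were not lower. The p53 regulator Mdm4 (132959484 to 133030561) had 0.01, and the p53 target Dyrk3 (131127455 to 131138340) had 0.34. The part of the locus in these values was not tested. Of 11 apoptosis targets, 8 were higher and 3 were lower with a median of 0.05. The highest was Perp, a membrane protein of desmosomes and cell death, with 0.81, and Casp1, below the well measured level with 42 and 31 reads, had -0.43. Of 8 targets in DNA repair and nucleotide supply, 5 were higher and 3 were lower with a median of 0.28, and the ends were Rrm2b, the p53-induced ribonucleotide reductase subunit, with 0.66 and Ddb2, which recognises damage by ultraviolet light, with -0.41. Of 7 targets in metabolism and redox control, 6 were lower and the median was -0.15, from Gls2, a glutaminase, with -0.26 to Tigar, which lowers glycolytic flux, with 0.38. The remaining 16 targets had 11 higher and 5 lower, with a median of 0.15 and Sytl1 lowest at -0.91. Without the GC trend, the median of the metabolic targets was 0.18 rather than -0.15, with 5 of the 7 higher, that of the arrest targets was -0.10, that of all 49 was 0.11 and that of the 10 genes was 0.36. Scaling to Actb or to the summed value adds 0.12 or 0.17 to every log2 fold change, so a median below 0 by less than that takes the other sign.

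**Figure D4:**
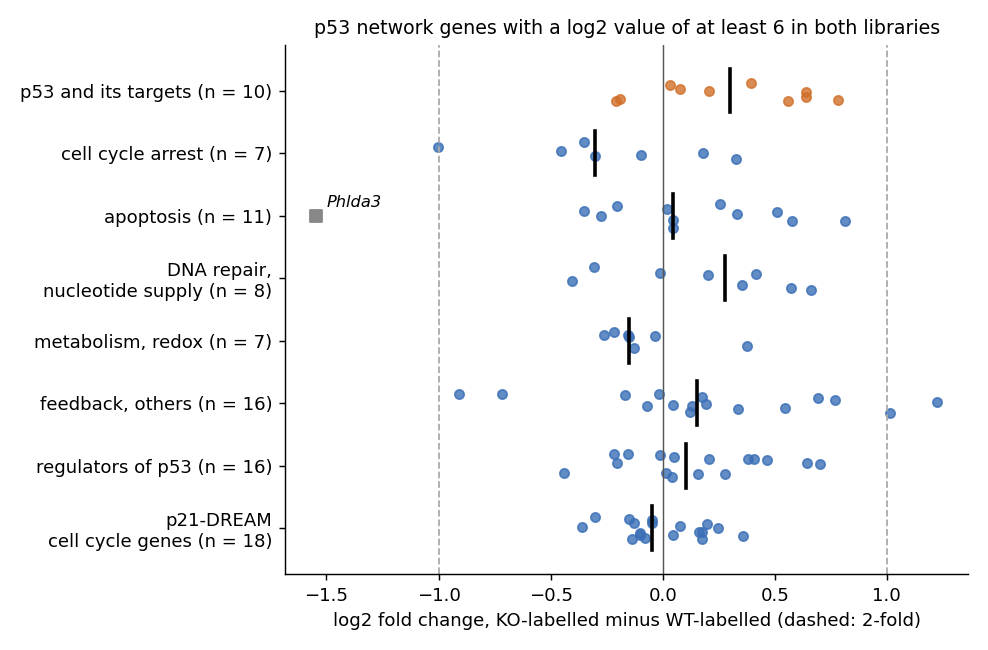
The horizontal axis gives the log2 fold change, KO-labelled minus WT-labelled (n = 1 each), of well measured genes (6 or more on the log2 scale in each library), 1 row per group, with black bars at the medians, dashed lines at 2-fold and vertical jitter without meaning. The 10 genes have a median of 0.30, the roles of other targets have medians on both sides of 0, and Phlda3 is drawn for reference in the row of apoptosis targets, among which it is not counted.

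Genes that act on p53 and genes that lie beyond p21 showed no shared 2-fold difference. Of 16 well measured regulators of p53, 11 were higher and 5 were lower with a median log2 fold change of 0.10. Without the GC trend, only 5 of the 15 regulators that have a GC value were higher, and their median was -0.05. Those 15 leave out Rfwd2, with 0.64 as deposited. The ends were Chek2, the checkpoint kinase that phosphorylates p53 after DNA breaks, with 0.70 and Hipk2, another p53 kinase, with -0.44. The 1 listed regulator past 2-fold, Cdkn2a, was named after its values were seen and had 0 and 5 reads, near the counting limit of 3 reads per library. Of the p53 family, Trp73 had log2 values of 6.13 and 6.10, and Trp63, also named after its values were seen, had 2 and 9 reads. The 18 cell cycle genes that p53 is known to lower through p21 and the DREAM repressor complex had 8 higher and 10 lower, with a median of -0.05 and a range from -0.36 for Foxm1 to 0.36 for Cdk1. Of the relatives of the 10 genes, Gadd45b had 0.75 and the CDK inhibitor Cdkn1c had -2.01, the latter from 31 and 7 reads with an interval from -3.58 to -0.94.

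Differences between the libraries moved with the GC content of the transcript. Over 8579 genes that reached 8 on the log2 scale in each library, the median log2 fold change was 0.23 in the lowest of 20 bins, at a GC content of 38.8%, and -0.45 in the highest, at 60.9%. The longest transcripts of the 10 genes ranged from 38.8% for Trp53inp1 to 58.7% for Sesn2, with a median of 49.8%, beside 49.9% for all well measured genes. With the trend removed, 7 of the 10 genes were higher in the KO-labelled library and 3 were lower (Trp53, Sesn1 and Ccng1). The values were then 0.77 for Gadd45a, 0.56 for Zmat3, 0.54 for Cdkn1a, 0.52 for Mdm2, 0.38 for Sesn2, 0.33 for Trp53inp1 and 0.27 for Aen. None was past 2-fold, and Mdm2, Cdkn1a and Zmat3 remained above the value that 5% of genes of like level exceeded. As deposited, those 3 genes and Trp53inp1 did so.

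**Figure D5:**
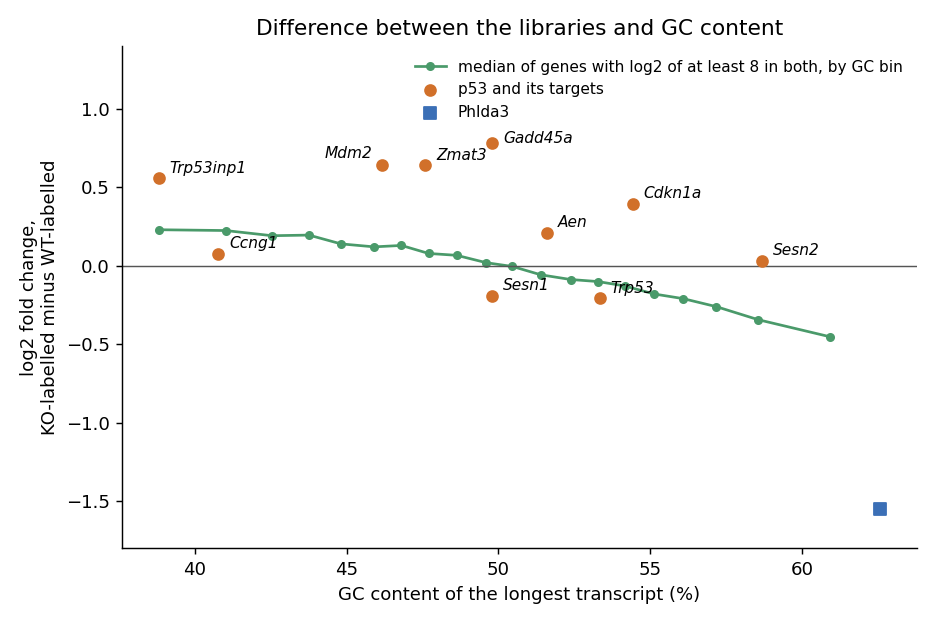
The horizontal axis is the GC content of each gene's longest transcript in percent and the vertical axis the log2 fold change, KO-labelled minus WT-labelled, with the line joining the medians of 20 bins of 8579 genes. Mdm2, Zmat3, Gadd45a and Cdkn1a lie well above the line, Ccng1, Sesn1 and Trp53 lie below it, and Phlda3 lies furthest from it.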

How the data were processed

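RNA sequencing of 1 WT Th1 and 1 Chi3l1 KO Th1 library was analysed. The authors made SENSE mRNA-Seq libraries from polyadenylated RNA and sequenced them from both ends. They mapped reads with TopHat (mm10 in the submitters' processing notes), counted unique and multiple alignments for edgeR, also ran cufflinks for FPKM, and applied a global normalization. The aligner settings, annotation and use of strand are not given in the sources used here. The deposited values were taken to be log2 of normalized read counts plus 1, a unit inferred from the values, since low values undone from the log lie near whole multiples of 0.968 (WT) and 0.967 (KO). Reads were rebuilt by dividing by this step, an approximation since the step varies slightly between genes. Reads aligned to several genes can be counted more than once. On this scale 3 reads stand at 1.97 in the WT-labelled and 1.96 in the KO-labelled library.

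The fold change is the difference of deposited values, and 2-fold, the line drawn by the study, was the threshold. Intervals are exact binomial (Clopper-Pearson, 95%) on the rebuilt reads and cover counting error only. Gene models and transcripts came from GENCODE M21 (GRCm38), which matched 96.0% of the symbols listed at 1 or more in either library, and promoters came from RefSeq. The GC trend was the median log2 fold change in 20 bins, subtracted by interpolation. Named are the 10 genes, Phlda3, Chil1, genes of each list past 2-fold that reach 4 on the log2 scale in either library, and the highest and lowest difference of each list among genes that reach 4 in both. The members, Phlda3 and the lists were chosen with earlier results of these data known. The floor of 6 and the scaling to the summed value were chosen after seeing the data. Other settings were a pseudocount of 0.1 or none, a floor of 4, median-ratio, quantile and Actb scaling, and 1.5-fold and 3-fold thresholds. The scripts were tested on simulated data. Calculations were run in Python 3.11.15 (numpy 2.4.6, scipy 1.17.1, pandas 2.3.3).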

Additional observations from a re-analysis of the deposited data

How the results depend on the processing

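With 1 library per genotype there is no replicate error, and among the 10 genes depth limits Gadd45a most. No gene of the 10 was past 2-fold under any scaling, pseudocount, floor or GC setting, nor at 3-fold, and lowering the threshold to 1.5-fold gave 3 higher and 0 lower. The median of the 10 genes moved from 0.30 to 0.42 when scaled to Actb and to 0.47 when scaled to the summed value. Those scalings shift the median of all well measured genes by 0.12 and 0.17, and the share of such genes that are higher from 49.4% to 61.2% and 66.5%. Phlda3 kept its direction and its place past 2-fold, and moved to -1.09 with the GC trend removed. The median of the other p53 targets was 0.02 and ranged from 0.01 with quantile normalization to 0.19 with scaling to the summed value. For the single genes, 8 were higher and 2 lower under all settings but the removal of the GC trend, where Ccng1 changed side. No paired analysis was possible because each genotype has 1 library.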
